A study of Mus musculus with 4 samples.

Results

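The genes described here are 42 interferon-induced and major histocompatibility complex (MHC) class I processing genes, taken from a list of names, with no threshold on their measured values. A gene was measured where the array's annotation gave a probe set exactly 1 of these symbols, and the brightest such probe set was used. This held for 36 of the 42 genes, of 19938 genes measured in the series. They comprise 21 type I-like genes, 4 interferon-inducible GTPases, 8 class I processing genes and 3 other regulators. The 6 without such a probe set (Isg15, Ifi44, Gbp2, Gbp6, Igtp and Irgm2) were not analysed here.

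The samples were livers of 8-week-old mice labelled male, of 4 genotypes. These are wild type, MDR2-/- (loss of the Abcb4 product, the transporter that moves phosphatidylcholine into bile), GHR-/- (loss of the growth hormone receptor) and GHR-/-MDR2-/-, called double-null below. RNA from 3 livers was combined into 1 pool per genotype and measured once, on a whole-transcript Affymetrix array, so the spread between mice is not known and differences between pools carry no p-value. The strain, the deleted exons and any treatment beyond standard husbandry are not given in the sources used here. Values are the deposited intensities, and 4 values given in a row follow the order wild type, then the 2 single losses (MDR2-null before GHR-null), then the double-null pool. The median over all measured genes of their mean level was an intensity of 99.2. No value was tested against background, so 99.2 serves below as a mark of low level and not as a detection limit.

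Ghr read 4944, 4485, 1395 and 935, and Abcb4 read 1120, 663, 1346 and 689, each lower in the 2 pools labelled as lacking it, though which part of these genes the probes cover was not examined. Xist, the RNA of the inactive X chromosome of females, read 16, 18, 1400 and 17, which goes against the label male in the GHR-null pool. The Y-linked Eif2s3y read 680 in that pool and 840 to 951 in the others. Comparisons with the GHR-null pool therefore stand beside those that do not use it (MDR2-null minus wild type and double-null minus MDR2-null).

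Type I interferons signal through a receptor whose kinases activate STAT2, which acts with IRF9 in a complex that binds the interferon-stimulated response element (ISRE) of target genes. Interferon gamma has its own receptor and acts through the gamma-activated site (GAS), and IRF1 then extends the response to ISRE-like sites. The targets restrict viruses (IFIT, OAS and MX proteins), attack the vacuoles of intracellular microbes (guanylate-binding and immunity-related GTPases) and cut, carry and load peptides for display on MHC class I. In the liver these genes are expressed by hepatocytes as well as by immune and endothelial cells.

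Promoter sequence was examined because it ties the genes to these factors. The genes were not chosen by motif, but they were named as interferon-induced, so a high share of these motifs is not independent of that choice. RefSeq promoter windows of GRCm38.p6, 250 bases before to 50 bases after the gene start, were matched by symbol to 26 of the 36 measured genes. The ISRE core (GAAA, any 2 bases, GAAA), searched on both strands, was present in 12 of the 26 (46.2%), against 3.99% of all 27025 genes with such a window. The GAS letters (TTC, any 3 bases, GAA), which read alike on both strands, were present in 7 of the 26 (26.9%), against 9.55%. Among type I-like genes 7 of 14 windows held the ISRE core, among GTPases 3 of 3, and among class I processing genes 1 of 6, that of B2m. Both motifs were present in Bst2, where they share bases, and in Gbp7. A letter match is a description and not a bound site.

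The stretches below show the ISRE core nearest to the gene start, in capitals (overlapping copies are joined), 5′ to 3′ on the gene's strand, with 15 bases on either side. In Irgm1 only 14 bases follow the match, because the stretch ends at the gene start. The first 6 belong to genes at least 1.5-fold lower in the double-null pool than in each other pool, as described below. Stat2 and B2m are shown as examples of genes with the motif that did not pass that fold. Gbp3, Socs1, Ddx58 and Ifih1 also held the motif without passing it and are not shown, so the choice of stretches does not tie the motif to the fold.
Ifit1 (chr19:34640789-34640828, plus strand): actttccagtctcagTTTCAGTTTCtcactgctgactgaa
Ifit3 (chr19:34583392-34583431, plus strand): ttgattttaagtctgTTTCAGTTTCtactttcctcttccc
Rsad2 (chr12:26456548-26456587, minus strand): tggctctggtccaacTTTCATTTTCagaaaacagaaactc
Bst2 (chr8:71537572-71537617, minus strand): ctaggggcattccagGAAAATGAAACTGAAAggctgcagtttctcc
Gbp7 (chr3:142530268-142530307, plus strand): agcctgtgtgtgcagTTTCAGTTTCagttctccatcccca
Irgm1 (chr11:48871421-48871465, minus strand): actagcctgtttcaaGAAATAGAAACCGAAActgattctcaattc
Stat2 (chr10:128270261-128270300, plus strand): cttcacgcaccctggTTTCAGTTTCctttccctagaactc
B2m (chr2:122147533-122147572, plus strand): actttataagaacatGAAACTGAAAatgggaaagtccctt
The match begins 85 bases before the start of Ifit1, 122 before Ifit3, 120 before Rsad2, 130 before Bst2, 53 before Gbp7 and 30 before Irgm1. In Stat2 and B2m it begins 222 and 139 bases before the start. Of the 10 measured genes with a core before the start, 6 had TTTCAGTTTC as the core nearest to it, on one strand or the other: Ifit1, Ifit3, Gbp7 and Stat2 on the gene's strand and Bst2 and B2m on the opposite one.

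**Figure D1:**
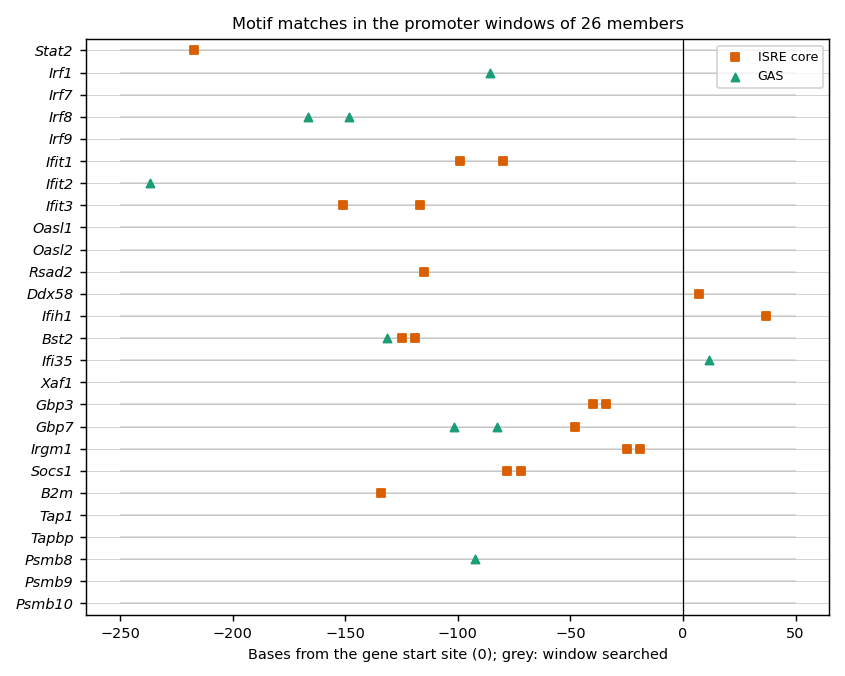
Positions of ISRE core matches (squares) and GAS matches (triangles) in the RefSeq promoter windows of the 26 measured genes that have one. The horizontal axis is the distance in bases from the gene start and grey lines mark the window searched. The 3 GTPases with a window have ISRE matches that begin no more than 53 bases before the start, and no match of either motif was found in the windows of Tap1, Tapbp, Psmb9 and Psmb10.

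Across the 36 genes, the pool without both GHR and MDR2 was most often the lowest. It held the lowest value in 21 of 36 genes, against 26.6% of all measured genes, while the MDR2-null pool held the highest in 16, against 21.5%. When arrays were centred on hepatocyte markers it was lowest in 14, and the share of all genes with that centring was not computed. In 7 genes the double-null pool was at least 1.5-fold below each of the other 3 pools, against 1.28% of all measured genes (2.52% of those with a mean level at or above the median), and the same 7 genes are found when the GHR-null pool is left out. With hepatocyte centring Gbp7 and Bst2 no longer qualify, which leaves 5. The 7 as deposited are the GTPases Iigp1, Irgm1 and Gbp7 and the type I-like effectors Ifit3, Rsad2, Ifit1 and Bst2. No member was at least 1.5-fold above the other 3 pools, against 2.76% of all genes. The whole-liver RNA does not tell fewer cells of a type from less RNA per cell.

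**Figure D2:**
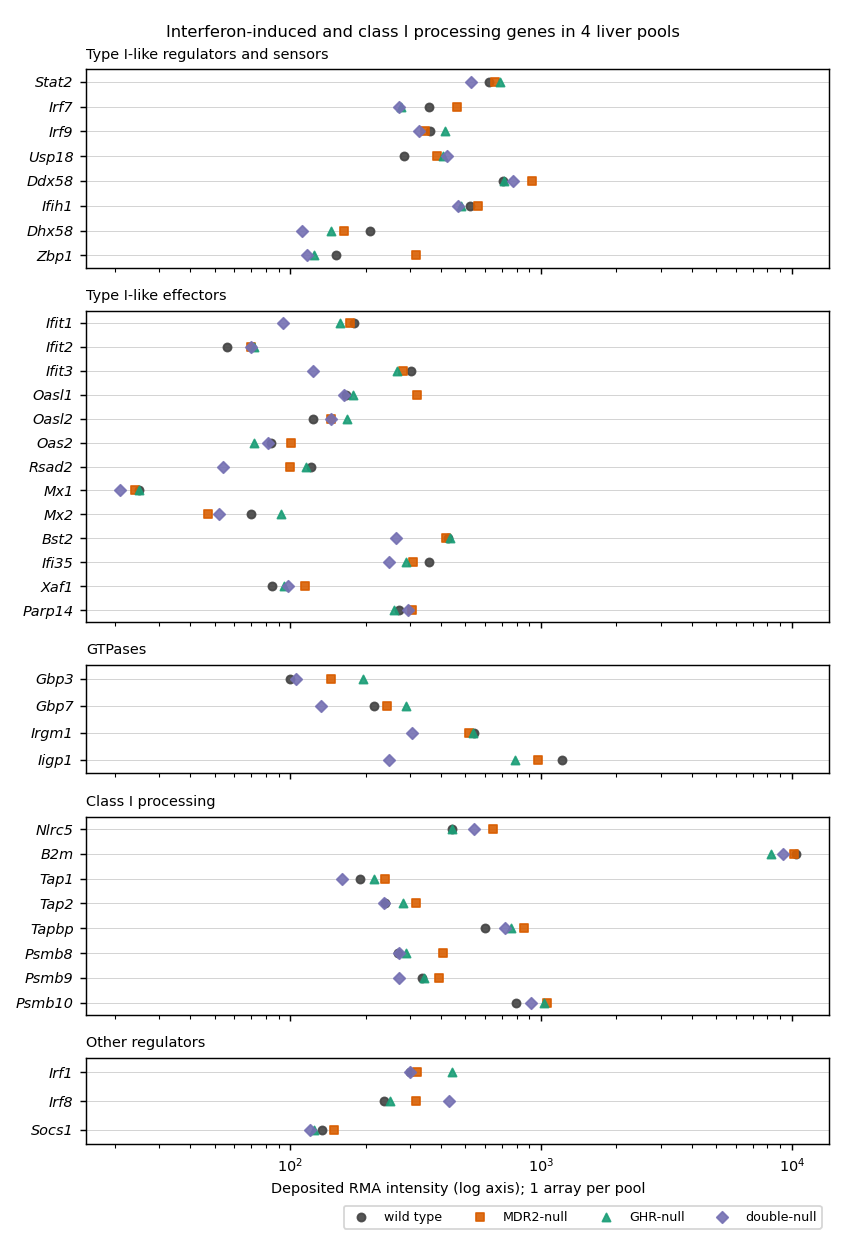
Deposited intensity of each of the 36 genes on a log axis, with 1 point per liver pool and panels by role. The double-null pool (diamonds) lies to the left of the others for Iigp1, Irgm1, Gbp7, Ifit1, Ifit3, Rsad2 and Bst2, and the MDR2-null pool (squares) lies to the right for 7 of the 8 class I processing genes, Nlrc5 among them by its brightest probe set.

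By median, the GTPases were the member group with the largest differences from the double-null pool. Iigp1, an immunity-related GTPase that disrupts the vacuoles of intracellular parasites, read 1219, 978, 789 and 249. The double-null pool was 3.93-fold below the MDR2-null and 3.17-fold below the GHR-null pool, and the difference between single-loss and wild-type pools was at most 1.54-fold. Irgm1, which regulates the other immunity-related GTPases and autophagy, read 541, 515, 535 and 305, that is, 3 pools close together and the double-null pool 1.69-fold below the MDR2-null one. Gbp7, a guanylate-binding protein, read 217, 243, 289 and 133, with the double-null pool 1.83-fold below the MDR2-null one. Gbp3, its chromosomal neighbour and paralog, had another order, with 100, 146, 195 and 106: both single-loss pools were higher than wild type and the double-null pool was near wild type.

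The median difference of these 4 genes was -0.81 (log2) for double-null minus MDR2-null against 0.00 over all measured genes, and for double-null minus GHR-null the 4 values ran from -1.66 to -0.81. In the first, 3 of the 4 were at least 1.5-fold lower, against 2.31% of all genes, and in the second 4 of 4, against 5.68%. These comparisons share the double-null array. In MDR2-null minus wild type the median was 0.05 with no gene past 1.5-fold, and in GHR-null minus wild type it was 0.20 with 1 gene higher (Gbp3) and 1 lower (Iigp1), against 2.55% and 1.65% of all genes.

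Other genes of these families were listed with the pathway and not among the 36. Of 8 measured, 6 were at least 1.5-fold lower and none higher for double-null minus MDR2-null, against 2.31% and 4.45% of all genes, with a median of -0.83. Gbp11 read 574, 899, 327 and 149, the largest difference of the list at 6.03-fold between the MDR2-null and double-null pools. Gbp4 read 210, 166, 135 and 86, Gbp8 read 184, 315, 162 and 167, and Gm12250 read 140, 172, 123 and 74. Guanylate-binding proteins are close paralogs, and whether their probes cross-hybridise was not tested.

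Type I-like effectors divided into a few genes with a drop in the double-null pool and more that were nearly level. Ifit3 and Ifit1, which bind viral RNA, read 303, 283, 268 and 124, and 180, 173, 158 and 94. Rsad2 (viperin), which makes a chain-terminating nucleotide, read 121, 100, 116 and 54, and Bst2 (tetherin), which holds budding virions at the cell surface, read 428, 419, 436 and 265. In each of these both single-loss pools lay within 1.21-fold of wild type, and the double-null pool was 2.28-fold (Ifit3), 1.84-fold (Ifit1), 1.85-fold (Rsad2) and 1.58-fold (Bst2) below the MDR2-null pool. The double-null values of Rsad2 and Ifit1 lie under 99.2, so their ratios are not exact. These 4 are among the genes whose ISRE stretches are printed above. Ifit2, the chromosomal neighbour of Ifit3, read 56, 70, 72 and 70, under 99.2 in every pool, and had no such match in its window.

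Oasl1, a 2'-5' oligoadenylate synthetase-like protein that restrains Irf7 translation, had a different profile: it read 167, 320, 179 and 164, higher in the MDR2-null pool alone, by 1.92-fold over wild type. Its neighbour Oasl2 read 124, 145, 168 and 145. Ifi35 read 358, 310, 291 and 247, with the double-null pool 1.26-fold below the MDR2-null one, and the antiviral ADP-ribosyltransferase Parp14 read 272, 307, 260 and 296. These last 3 genes differed by less than 1.5-fold between the pools compared. The synthetase Oas2 (84, 101, 72 and 82), the apoptosis factor Xaf1 (85, 115, 95 and 98), and the dynamin-like GTPases Mx1 (25, 24, 25 and 21) and Mx2 (70, 47, 92 and 52) were all near or under the median level of 99.2. The Mx2 ratio of 1.77-fold between the GHR-null and double-null pools is therefore not exact.

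Among regulators and RNA sensors of the type I-like group, Zbp1 and Irf7 were those past 1.5-fold in the 4 comparisons made. Zbp1, a sensor of Z-form nucleic acid that can start necroptosis, read 152, 318, 125 and 117. The MDR2-null pool was 2.09-fold above the wild-type and 2.72-fold above the double-null pool, and the pools other than MDR2-null lay between 117 and 152. Irf7, the factor that amplifies interferon alpha production, read 357, 463, 276 and 271, so that both pools without GHR were low and the double-null pool was 1.71-fold below the MDR2-null one. Dhx58, a regulator of the RIG-I-like receptors, read 209, 164, 145 and 112, the wild-type pool highest and the double-null lowest.

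The remaining genes of this group differed by under 1.5-fold in the 4 comparisons made. Stat2 read 623, 655, 684 and 526 and Irf9 read 363, 346, 414 and 327, the parts of the ISRE-binding complex. The RNA sensors Ddx58 (RIG-I) and Ifih1 (MDA5) read 708, 921, 715 and 775, and 523, 563, 481 and 468. Usp18, which removes ISG15 and damps type I receptor signalling, read 284, 386, 408 and 422 and is the exception in direction, lowest in wild type and highest in the double-null pool.

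Over all 21 type I-like genes the median for double-null minus MDR2-null was -0.30 (log2), with 7 genes at least 1.5-fold lower and none higher, against 2.31% and 4.45% of all genes. For double-null minus GHR-null it was -0.21, with 5 lower and none higher, against 5.68% and 6.48% of all genes. For MDR2-null minus wild type it was 0.11, with 2 higher (Zbp1 and Oasl1) and none lower, against 4.09% and 2.03% of all measured genes. For GHR-null minus wild type it was 0.00 with no gene past 1.5-fold, against 2.55% of all genes higher and 1.65% lower. The sign of this median turned with the scaling of the arrays, from -0.12 with median centring to 0.10 with hepatocyte centring. By role, the double-null minus MDR2-null median was -0.30 for the 13 effectors and -0.29 for the 8 regulators and sensors.

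Class I processing genes showed smaller differences: by the brightest probe set, 7 of 8 were highest in the MDR2-null pool. Among the 7 is Nlrc5, for which this depends on the probe set, as given below. Psmb8, a catalytic subunit that replaces its constitutive counterpart in the immunoproteasome, read 270, 406, 290 and 273, just at 1.5-fold above wild type in the MDR2-null pool and at 1.49-fold below that pool in the double-null. The other immunoproteasome subunits, Psmb9 and Psmb10, read 337, 393, 343 and 272, and 794, 1061, 1026 and 917. Tap1 and Tap2, which together form the peptide transporter into the endoplasmic reticulum, read 190, 240, 216 and 161, and 238, 318, 281 and 237. In both the MDR2-null pool was highest and the double-null lowest.

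Tapbp (tapasin), which couples class I molecules to that transporter, read 599, 854, 758 and 717, with all mutant pools above wild type. B2m, the light chain of class I molecules, was at the upper end of the intensity range, with 10363, 10222, 8285 and 9254, and was the gene not highest in the MDR2-null pool. Nlrc5, the transactivator of class I genes, read 443, 643, 444 and 543. It had 19 probe sets: 15 were higher in the MDR2-null than in the wild-type pool, while between double-null and MDR2-null 9 were higher and 10 lower, so the latter direction depends on the probe set. The brightest, used here, had the highest of the 19 values for MDR2-null minus wild type (0.54 in log2, median 0.22). It had the lowest for double-null minus MDR2-null (-0.24, median -0.01), so its MDR2-null maximum depends on the probe set too. Psmb9, Tap1, Psmb8 and Tap2 are consecutive protein-coding genes on chromosome 17, and the promoter windows of Tap1 and Psmb9, on opposite strands, overlap by 275 bases.

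The median of the 8 class I processing genes was 0.42 for MDR2-null minus wild type, with 1 gene higher by 1.5-fold, against 4.09% of all genes. Hepatocyte centring gave 3 higher there, and cyclic loess or median centring gave 3 lower in double-null minus MDR2-null. Shares of all genes were not computed for these scalings. As deposited, double-null minus MDR2-null had a median of -0.34 with none past 1.5-fold, against 2.31% of all genes lower. All 8 lay below 0, against 49.3% of all measured genes. With the mean over all probe sets Nlrc5 stood at 0.03 in double-null minus MDR2-null, which leaves 7. For GHR-null minus wild type the median was 0.14 and for double-null minus GHR-null -0.12, again with no gene past 1.5-fold. Of all genes, 2.55% were higher and 1.65% lower in the first, and 6.48% and 5.68% in the second. The constitutive proteasome did not share the MDR2-null maximum: its 14 core genes had a median of -0.20 for MDR2-null minus wild type. Of these 1 was lower by 1.5-fold (Psmb1, at 787, 497, 765 and 498) and none higher, against 2.03% and 4.09% of all genes. Psmb6, the subunit that Psmb9 replaces, read 1893, 1396, 1829 and 1495. Of 13 other genes of the class I pathway, none was past 1.5-fold in MDR2-null minus wild type or in double-null minus MDR2-null. Of all genes, 4.09% were higher and 2.03% lower in the first, and 4.45% and 2.31% in the second. The class I genes H2-K1, H2-D1 and H2-T23 were listed too but had no probe set with exactly 1 symbol, so they were not measured here. The liver-expressed class I gene H2-Q10 read 1906, 1508, 2077 and 1304.

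The 3 other regulators went separate ways. Irf8, a factor of monocytes and dendritic cells, read 237, 317, 251 and 429, the reverse of most genes here, with the double-null pool highest and 1.71-fold above the GHR-null pool. Irf1, the factor that links interferon gamma to class I genes, read 302, 320, 443 and 300, and its second, dimmer probe set read 61, 73, 63 and 67, without the GHR-null maximum. Socs1, the inhibitor of JAK kinases downstream of interferon receptors, read 134, 150, 125 and 120. Both motif types were found here, GAS in Irf1 and Irf8 and ISRE in Socs1.

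The loss of GHR can be read in both backgrounds, from pairs of arrays that share none; the difference between backgrounds was not tested. With MDR2 present (GHR-null minus wild type) 1 of 36 genes was at least 1.5-fold higher and 1 lower, near the 2.55% and 1.65% of all genes. With MDR2 lost (double-null minus MDR2-null) 10 were lower and none higher, against 2.31% and 4.45% of all genes (3.94% and 5.83% of those with a mean level at or above the median), and 31 of 36 lay below 0, against 49.3% of all measured genes. The gap between these differences, which uses all 4 arrays, had a median of -0.44 (log2) over the 36 genes and lay below 0 in 33, against a median of -0.05 and 55.6% over all genes. It was -1.31 for GTPases, -0.59 for class I processing and -0.39 for type I-like genes. For single genes this quantity had a robust SD of 0.32 over the 9969 genes of higher mean level, which holds real differences as well as noise. It rests in part on the GHR-null pool with Xist at 1400.

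**Figure D3:**
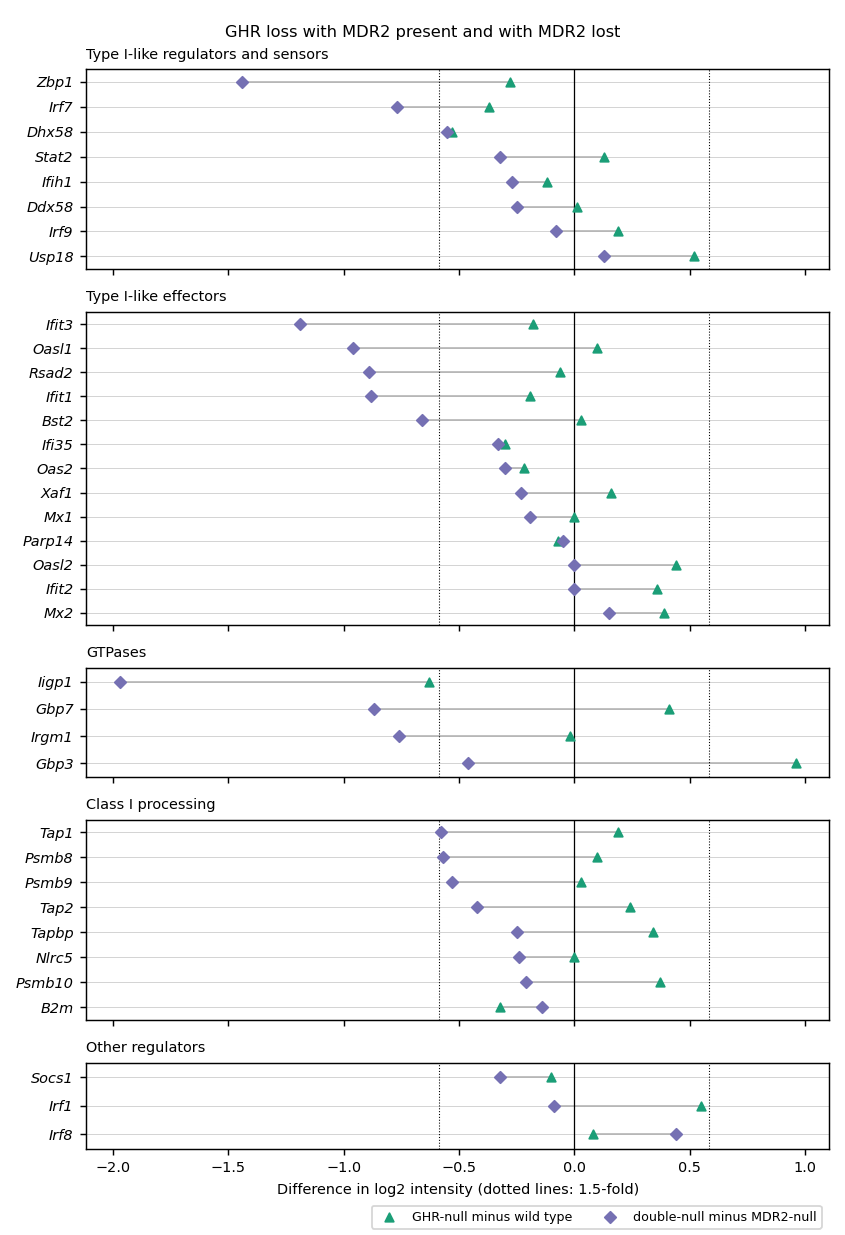
Log2 difference with GHR loss for each of the 36 genes, with MDR2 present (triangles, GHR-null minus wild type) and with MDR2 lost (diamonds, double-null minus MDR2-null). Grey lines join both values of a gene and dotted lines mark 1.5-fold. With MDR2 lost 10 genes lie beyond the lower dotted line, and with MDR2 present only Iigp1 does.

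A model with an average effect of each gene loss (limma over all 4 arrays, 1 residual degree of freedom, 9969 genes tested) called none of the 30 members of sufficient mean level at an adjusted p of 0.05. At an unadjusted limma p under 0.05 it found 4 for MDR2 loss (Irf8 and, by its brightest probe set, Nlrc5 higher, Iigp1 and Dhx58 lower) and 6 for GHR loss, all lower. The share of all tested genes at this unadjusted cut was not computed, so these counts have no background to be read against. The lowest limma p for GHR loss was that of Iigp1, with an effect of -1.30 ± 0.31 (log2, SE; adjusted p = 0.172), and for MDR2 loss that of Irf8, with 0.60 ± 0.15 (adjusted p = 0.0891). Over all genes tested, limma called 3.85% higher and 1.46% lower with MDR2 loss, and 0.261% higher and 0.441% lower with GHR loss. The model allows each loss 1 effect for both backgrounds, so a departure from additivity counts as residual error.

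Upstream of these genes, the receptors did not share the low level of their targets in the double-null pool. Ifngr1, the ligand-binding chain of the interferon gamma receptor, read 472, 831, 594 and 1564, and Ifngr2, its signalling chain, read 1216, 1597, 1282 and 2096. Il10rb, shared by the interferon lambda and interleukin 10 receptors, read 234, 433, 367 and 719. All were highest in the double-null pool, by 1.88-fold, 1.31-fold and 1.66-fold over the MDR2-null pool. The type I receptor chains Ifnar1 and Ifnar2 read 502, 513, 495 and 610, and 1706, 1800, 1861 and 1893. Of 11 genes of receptors and JAK-STAT signalling 3 were at least 1.5-fold higher in double-null minus MDR2-null and none lower, against 4.45% and 2.31% of all genes. The 3 were Ifngr1, Il10rb and Stat4, and Stat4 was under 99.2 in every pool (28, 33, 32 and 57). Of 8 interferon genes, 6 were under the median level of 99.2 in every pool, Ifng with 43, 43, 39 and 37 among them, and none was past 1.5-fold.

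The interferon-inducible chemokines were not uniform. Cxcl9, a T cell attractant induced by interferon gamma, read 216, 470, 367 and 80, and Cxcl11, a ligand of the same receptor, read 196, 143, 369 and 70. Both were lowest in the double-null pool, by 5.87-fold and 2.04-fold against the MDR2-null pool, ratios that are not exact because the double-null values lie under 99.2. Cxcl10, also a ligand of that receptor, read 60, 100, 67 and 111 and was highest there. Of 51 other interferon-induced genes, 5 were at least 1.5-fold higher in MDR2-null minus wild type, against 4.09% of all genes, among them Samd9l with 119, 260, 167 and 242. In double-null minus MDR2-null 3 were lower, against 2.31% of all genes, and none higher; Herc6, among the lower ones, read 283, 360, 241 and 203.

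**Figure D4:**
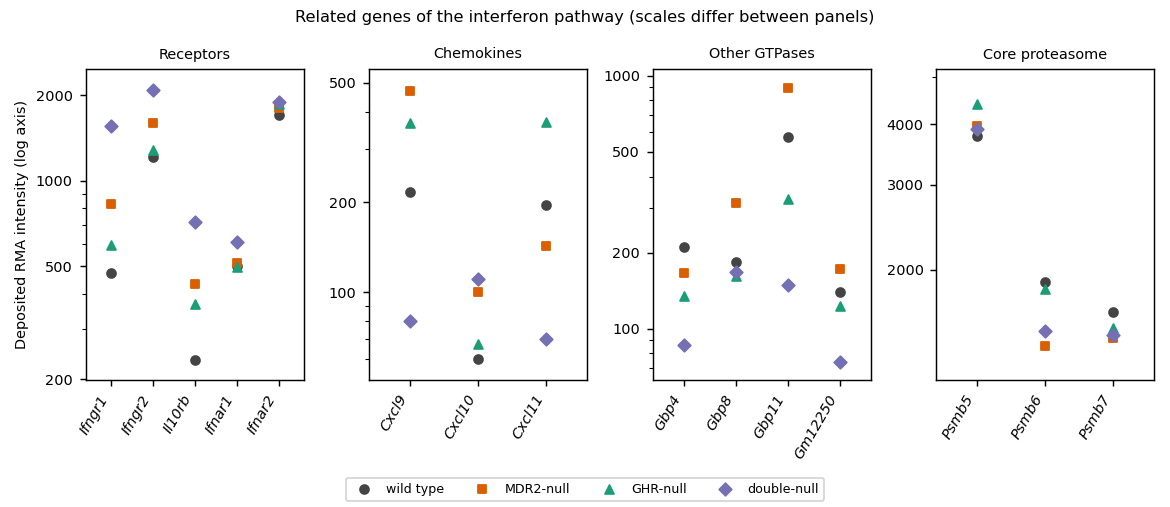
Deposited intensity in the 4 pools (log axes that differ between panels, 1 array per pool) of interferon receptor chains, chemokines, other GTPases and constitutive proteasome subunits. The double-null pool (diamonds) is highest for Ifngr1, Ifngr2 and Il10rb and lowest for Cxcl9, Cxcl11, Gbp4, Gbp11 and Gm12250.

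Cell type markers moved between the same pools. Of 13 macrophage markers, 11 were at least 1.5-fold higher in MDR2-null minus wild type and 5 in double-null minus MDR2-null, against 4.09% and 4.45% of all genes. None was 1.5-fold lower in either. In double-null minus MDR2-null Clec4f, Timd4 and Vsig4 were lower (-0.49, -0.32 and -0.15, log2) and the others higher. The summed intensity of the 13 was 4406, 10321, 6117 and 13896, of which Lyz2 made 847, 2879, 977 and 5243. Each of 7 markers of cholangiocytes was past 1.5-fold, and higher, in double-null minus MDR2-null, against 4.45% of all genes, with sums of 510, 827, 433 and 1962. The 10 natural killer cell markers all stayed under the median level of 99.2, with sums of 316, 397, 376 and 325. So did 8 of 10 T cell markers, and the 10 summed to 506, 594, 617 and 570. The 6 B and plasma cell markers summed to 298, 346, 396 and 515, of which the plasma cell gene Jchain made 53, 88, 91 and 289, and their median for double-null minus MDR2-null was -0.18. The sums were 455, 623, 539 and 704 for 5 plasmacytoid dendritic cell markers, 462, 616, 540 and 702 for 7 dendritic cell markers, and 281, 342, 332 and 374 for 7 neutrophil markers. Of these sums Tcf4 made 227, 258, 306 and 321, Itgax 50, 80, 49 and 172, and Csf3r 51, 88, 73 and 121. The medians of these lists for double-null minus MDR2-null were 0.08, -0.03 and -0.05, in that order. The 13 hepatocyte markers had none past 1.5-fold in any comparison, with sums of 146408, 137794, 137863 and 135330, and the 6 endothelial markers summed to 4157, 4578, 5143 and 4152. The part of these shifts in the interferon-induced genes was not tested.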

How the data were processed

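Labelled RNA of 4 liver pools was hybridised to whole-transcript arrays. Per the submitters' processing notes, the deposited intensity values came from RMA (background correction, quantile normalization, probe summary) in Affymetrix Expression Console 1.1. They are whole numbers from 6 to 22355, a linear scale, so log2 was taken here. Rounding makes differences between low values coarse, and quantile normalization can hide a shift shared by most genes. Of 35556 rows, 21789 carried 1 gene symbol, 1621 several and 12146 none. Only the first were used, by the highest mean for 999 genes with several rows. All 36 members matched RefSeq (GRCm38.p6) by gene identifier. No genome build is given for the probe sets.

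Differences are between single arrays. Counts use 1.5-fold over all genes with a row. The additive limma 3.58.1 fit (R 4.3.3, eBayes, 4.96 prior degrees of freedom, Benjamini-Hochberg) used genes with a mean log2 at or above the median (30 of 36 members). It was run on simulated data with equal noise for all genes and an MDR2 effect alike in both backgrounds. That trial does not cover genes that depart from additivity. Every member is named. Genes of other pathway and marker lists were drawn from those with the largest differences, and further ones were chosen after their values were seen. Members and lists were chosen with earlier results of these data known. Alternatives were other scalings, filters, folds, a pseudocount, the mean of a gene's rows and other limma settings. The number of arrays limits the precision.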

Additional observations from a re-analysis of the deposited data

Results flagged for a closer look

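With 1 array per genotype, 4 genes had a difference with GHR or MDR2 loss that pointed in opposite directions in the 2 backgrounds, with a gap of at least 1 log2 unit between them. The difference of differences (GHR loss with MDR2 lost minus GHR loss with MDR2 present) was -1.43 for Gbp3, -1.28 for Gbp7, -1.16 for Zbp1 and -1.06 for Oasl1. Gbp3 was higher with GHR loss in the presence of MDR2 (0.96) and lower without it (-0.46), and Gbp7 likewise (0.41 and -0.87). Zbp1 and Oasl1 were higher with MDR2 loss in the presence of GHR (1.06 and 0.94) and differed little without it (-0.10 and -0.13). None of these differences between backgrounds was tested, and all use the GHR-null pool with Xist at 1400. The GHR-null minus wild-type value of Oasl1 turned from 0.10 to -0.02 with median centring.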

How the results depend on the processing

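Medians of the 3 member groups moved by less than 0.22 (log2) under cyclic loess, median centring, hepatocyte centring, the mean of all rows, a pseudocount of 16 and a filter on mean level. This spread is the one implied for 1 pairwise difference of a single gene by the robust SD of 0.32 above, which holds real differences. It is a loose mark for group medians: within it the type I-like GHR-null minus wild-type median turned from -0.12 to 0.10. Median centring shifted all genes by -0.12 in GHR-null minus wild type, and hepatocyte centring by 0.12 in MDR2-null minus wild type. Counts at 1.5-fold were small and changed as follows. For type I-like genes in MDR2-null minus wild type, 1 was lower with cyclic loess (0 as deposited) and 1 was higher at 2-fold (2 at 1.5-fold); in GHR-null minus wild type 1 was higher with hepatocyte centring and 1 lower with cyclic loess or median centring (0 as deposited). In double-null minus MDR2-null 2 of the 7 lower were so at 2-fold, and in double-null minus GHR-null 2 of the 5, or 3 after the filter on mean level. For GTPases 1 was higher in MDR2-null minus wild type with median or hepatocyte centring (0 as deposited). In GHR-null minus wild type 0 were higher or lower at 2-fold, and 0 lower with hepatocyte centring (1 as deposited). In double-null minus MDR2-null 1 was lower at 2-fold (3 at 1.5-fold) and in double-null minus GHR-null 2 (4 at 1.5-fold). For class I processing genes in MDR2-null minus wild type 2 were higher with cyclic loess, 3 with hepatocyte centring and 0 with the pseudocount or at 2-fold (1 as deposited), and in double-null minus MDR2-null 3 were lower with cyclic loess or median centring (0 as deposited). The cause of these changes was not tested. With hepatocyte centring the genes at least 1.5-fold lowest in the double-null pool were 5 in place of 7, without Gbp7 and Bst2, and the members lowest there were 14 in place of 21. Of 720 single-gene values, 5 moved by more than the spread, all of Irf1 or Nlrc5 with the mean of all rows, and no difference of 1.5-fold or more reversed. No limma setting called a member. Without the GHR-null array the additive fit has no residual degree of freedom, and the single differences stand in its place. No paired analysis was possible because each genotype is 1 array.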

Other observations

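Genes of nucleic acid sensing outside the 36 were measured in 12 cases. Of these, 3 were at least 1.5-fold higher in MDR2-null minus wild type and 2 in double-null minus MDR2-null, against 4.09% and 4.45% of all genes. Tlr8, an endosomal RNA receptor of myeloid cells, read 57, 111, 90 and 188 in wild type, MDR2 loss, GHR loss and loss of both, and the DNA receptor Tlr9 read 94, 170, 118 and 146. Irf5, a factor downstream of these receptors, read 260, 203, 110 and 208, lowest in the GHR-null pool. Mavs, the adaptor of the RIG-I-like receptors, read 1413, 1308, 1647 and 1063.

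Of the cytokine genes around interferon gamma, Il18 and Il15 had different orders of the pools. Il18, which elicits interferon gamma from lymphocytes, read 422, 362, 485 and 257, lowest in the double-null pool. Il15, a growth factor of natural killer cells, read 72, 81, 135 and 85, highest in the GHR-null pool. Among inhibitors of cytokine signalling the largest differences were those of the growth hormone targets Cish (352, 320, 154 and 95) and Socs2 (782, 535, 243 and 605), whereas Socs3 read 175, 252, 160 and 182, highest in the MDR2-null pool, as was Socs1.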
